A study of Danio rerio with 6 samples.

Results

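Glucose, lactate and amino acids cross cell membranes through solute carriers, and 5 families of these carriers were examined after a needle injury to the telencephalon of adult zebrafish. A gene was included when its Ensembl name began with *slc2a*, *slc16a*, *slc3a*, *slc7a* or *slc38a* followed by a digit. This gave 72 of the 32520 genes in the count files, with 19 genes of the slc2a family, 19 of slc16a, 3 of slc3a, 18 of slc7a and 13 of slc38a. A total of 70 encode transporters or their subunits. The names of the other 2, *slc7a6os* and *slc2a4rg*, fit the rule, but their products are not transporters. Several names belong to a pair of zebrafish genes that the name table does not tell apart. Such genes are written in capitals with their Ensembl identifier.

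The injured group comprised 3 telencephalic hemispheres taken 5 days post lesion (dpl), after a syringe needle had been pushed into one hemisphere of each adult fish. The control group comprised 3 hemispheres without treatment, for which the study used the contralateral side. Each hemisphere gave 1 library of polyadenylated RNA. Strain, sex and age of the fish were not given in the sources used here, no other manipulation was named for either group, and the control hemispheres came from brains that had been injured on the other side.

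The slc2a family (GLUT proteins) carries glucose and other sugars by facilitated diffusion, and the slc16a family (monocarboxylate transporters) carries lactate, pyruvate, ketone bodies and other small molecules. In mammalian brain, glucose enters through Slc2a1 in the vessel wall and through Slc2a3 in neurons, and lactate moves between glia and neurons through Slc16a1, Slc16a3 and Slc16a7. The slc7a light chains exchange amino acids across the membrane, and several of them reach the cell surface only when joined to a slc3a heavy chain. The slc38a family imports and exports glutamine and other small neutral amino acids together with sodium ions or protons, and supplies neurons with glutamine made by glia.

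The libraries held 63200617 to 91663196 reads on genes in injured and 59675791 to 84610201 in control hemispheres. The 72 genes took up 0.291% to 0.303% of these reads in injured and 0.287% to 0.295% in control hemispheres. Telencephalic markers such as *foxg1a* and *tbr1b* were present in every library, and the sum of 7 such markers was 573 to 637 CPM (reads relative to library size after TMM normalization) in injured and 541 to 598 CPM in control hemispheres. Injured libraries 1 and 3 also held transcripts of pineal and photoreceptor genes, whose sum was 191, 8.86 and 448 CPM in injured hemispheres 1, 2 and 3, against 8.38 to 10.4 CPM in control hemispheres. The values of other cell type markers are given with the results that they accompany.

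At 5 dpl, 9 transporter genes were more abundant and 3 less abundant in injured than in control hemispheres at an adjusted *p*-value (adjp) below 0.05. The largest increases were those of *slc7a7*, *slc2a6* and *slc3a2a*, at 2.34 to 3.08 times the control level. The other increases, in *slc2a10*, *slc38a5b*, *slc2a12*, *slc7a1b*, *slc2a1b* and *slc2a1a*, were 1.24-fold to 1.56-fold. The 3 decreases, in SLC16A3 (ENSDARG00000045051), *slc7a4* and SLC2A13 (ENSDARG00000087867), left 0.81 to 0.88 times the control level.

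These calls came from edgeR's quasi-likelihood F-test, adjusted over the 22558 genes that passed its filter on low counts, of which 68 are members. The share called, 12 of 68 members or 17.6%, lay near the 16.5% of all genes tested. By direction, 9 members were called higher, where 11.6% of all genes were, and 3 were called lower, where 4.82% were. In 20 of the 68 members all injured libraries exceeded all control libraries (20.3% of all genes), and in 7 of the 68 all injured libraries were the lower ones (15.5% of all genes). The median log2 fold change, injured over control, was 0.14 over the members tested and -0.0038 over all genes tested. In the same test 25 members had an unadjusted *p*-value below 0.05.

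Same-numbered hemispheres deviated together. With the replicate number as a block 28 of the 68 members tested were called, 20 of them higher and 8 lower, against 36.1%, 19.9% and 16.2% of all genes. All 12 members called without the block were among these 28. The DESeq2 Wald test called 18 members (22.7% of all genes), and all 12 were among those as well. When each library was left out in turn, *slc7a7*, *slc2a6*, *slc3a2a*, *slc38a5b* and *slc2a1b* remained called each time, whereas the other 7 lost the call without some of the libraries, as given with each gene. The libraries are separate hemispheres, and with 3 against 3 an exact permutation test of 1 gene cannot go below *p* = 0.1.

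**Figure D1:**
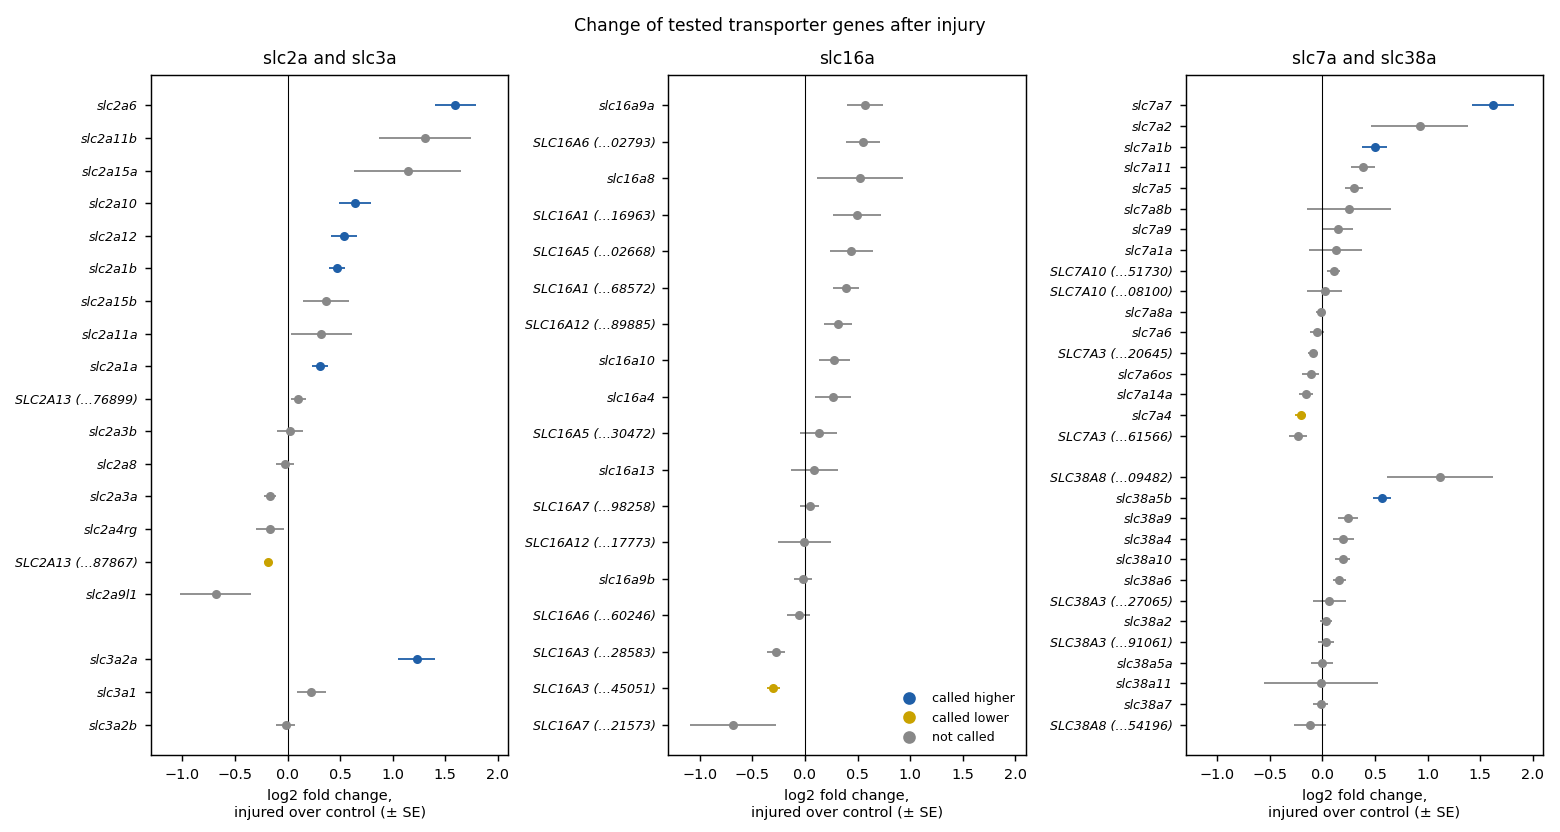
Log2 fold change (injured over control) with its standard error for the members tested, apart from 1 not reported here, grouped by family and ordered by size. Blue points were called higher, yellow points called lower and grey points not called, and digits after a name in capitals are the last 5 of its Ensembl identifier. The 3 largest called increases stand in 3 different families, *slc7a7*, *slc2a6* and *slc3a2a*.

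Among the slc2a genes grouped here as glucose carriers, 5 of 8 genes tested were called higher after injury and none lower, beside 11.6% and 4.82% of all genes. The substrates of these carriers were not tested. Over the whole slc2a family, 5 of 16 genes tested were called higher and 1 lower. An unadjusted *p*-value below 0.05 was reached by 6 of the 8, and DESeq2 called 1 of the 8, *slc2a3a*, lower. The 5 calls fell to 2 without control 2 or injured 2. In injured 2 all 5 stood above every control library, but their calls used this library, so this is no separate test. The sum over the glucose carriers stood at 340 ± 16 CPM in injured and 339 ± 12 CPM in control hemispheres (SD, n = 3 each). The gene of highest CPM among them, *slc2a3a*, averaged 218 ± 12 CPM in injured and 245 ± 13 CPM in control hemispheres and was not called. It held 51.2% of the reads of the slc2a family in injured and 57.1% in control hemispheres, not corrected for transcript length.

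*slc2a6*, whose mammalian counterpart sits on lysosomes and is induced in activated macrophages, had 4.50, 5.05 and 5.30 CPM in injured hemispheres 1, 2 and 3, against 1.20, 1.99 and 1.68 CPM in control hemispheres 1, 2 and 3. All injured libraries were higher than all control libraries. The log2 fold change was 1.60 ± 0.19 (SE), with adjp = 0.0031.

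Both copies of *slc2a1*, the glucose carrier of the mammalian blood-brain barrier, were more abundant after injury. *slc2a1b* had 35.2, 36.4 and 41.1 CPM in injured and 28.5, 25.4 and 27.4 CPM in control hemispheres, a log2 fold change of 0.47 ± 0.08 (adjp = 0.0080). *slc2a1a* had 49.9, 54.0 and 45.8 CPM in injured and 42.1, 37.6 and 41.3 CPM in control hemispheres, a log2 fold change of 0.31 ± 0.07 (adjp = 0.031). Neither copy overlapped between conditions. The call of *slc2a1a* depended on the libraries, since adjp was 0.068 to 0.095 when any library but injured 3 was left out, and 0.028 without injured 3.

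*slc2a12* and *slc2a10*, which encode GLUT12 and GLUT10, were also more abundant after injury. *slc2a12* had 8.35, 8.81 and 8.54 CPM in injured and 6.62, 6.24 and 4.83 CPM in control hemispheres (log2 fold change 0.54 ± 0.12, adjp = 0.027). *slc2a10* had 3.14, 3.86 and 4.15 CPM in injured and 2.71, 2.26 and 2.19 CPM in control hemispheres (log2 fold change 0.64 ± 0.15, adjp = 0.031). Neither gene had an injured library as low as any control library. Leaving out control 2, injured 1, injured 2 or injured 3 raised the adjp of *slc2a12* to 0.058, 0.057, 0.079 and 0.070, and leaving out control 2, control 3, injured 2 or injured 3 raised that of *slc2a10* to 0.094, 0.11, 0.088 and 0.092.

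The neuronal glucose carrier *slc2a3a* had the highest CPM of the family. It had 210, 232 and 212 CPM in injured and 240.1, 259.6 and 234 CPM in control hemispheres, and the highest injured library lay just below the lowest control library. The log2 fold change was -0.17 ± 0.06, with adjp = 0.097, adjp = 0.035 in the DESeq2 Wald test and adjp = 0.0033 with the replicate block. Its copy *slc2a3b* had 9.58 to 11.1 CPM in injured and 8.36 to 11.2 CPM in control hemispheres (log2 fold change 0.02 ± 0.12, adjp = 0.93). *slc2a8*, an intracellular glucose carrier in mammals, had 6.73 to 7.59 CPM in injured and 7.0 to 7.56 CPM in control hemispheres (log2 fold change -0.02 ± 0.08, adjp = 0.89). *slc2a2*, the carrier of liver and pancreatic islets, was not tested, with 5 to 13 reads per library.

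The SLC2A13 proteins import myo-inositol with protons rather than glucose. SLC2A13 (ENSDARG00000087867) had 56.6, 55.0 and 57.9 CPM in injured and 64.0, 64.1 and 64.6 CPM in control hemispheres, and fell by 0.19 ± 0.04 on the log2 scale (adjp = 0.023). The other copy, ENSDARG00000076899, had 13.0 to 14.8 CPM in injured and 12.6 to 13.4 CPM in control hemispheres and was not called (log2 fold change 0.10 ± 0.07, adjp = 0.40). The call of the first copy was lost when libraries were scaled by their size alone (adjp = 0.072) and without control 1, control 2, control 3 or injured 2 (adjp = 0.070, 0.070, 0.078 and 0.070).

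None of the 5 tested genes of the remaining slc2a group was called, with 1 at an unadjusted *p*-value below 0.05 and none called by DESeq2. This group holds fructose and urate carriers and *slc2a11* and *slc2a15* genes, of which some are known from pigment cells of fish. Its values were low or spread widely. Of the 5, 3 had every injured library higher (20.3% of all genes) and 1, *slc2a9l1*, had every injured library lower (15.5% of all genes). Only *slc2a11a* overlapped between conditions. *slc2a11b* had 0.47, 0.58 and 1.13 CPM in injured and 0.15, 0.36 and 0.34 CPM in control hemispheres, with no overlap (log2 fold change 1.31 ± 0.44, adjp = 0.086, with the block 0.011). *slc2a15b* and *slc2a15a* had log2 fold changes of 0.36 ± 0.22 and 1.15 ± 0.51 (adjp = 0.32 and 0.18), *slc2a11a* of 0.32 ± 0.29 (adjp = 0.52) and *slc2a9l1* of -0.68 ± 0.34 (adjp = 0.22). *slc2a5* and *slc2a11l* had 1 to 8 reads per library and were not tested.

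**Figure D2:**
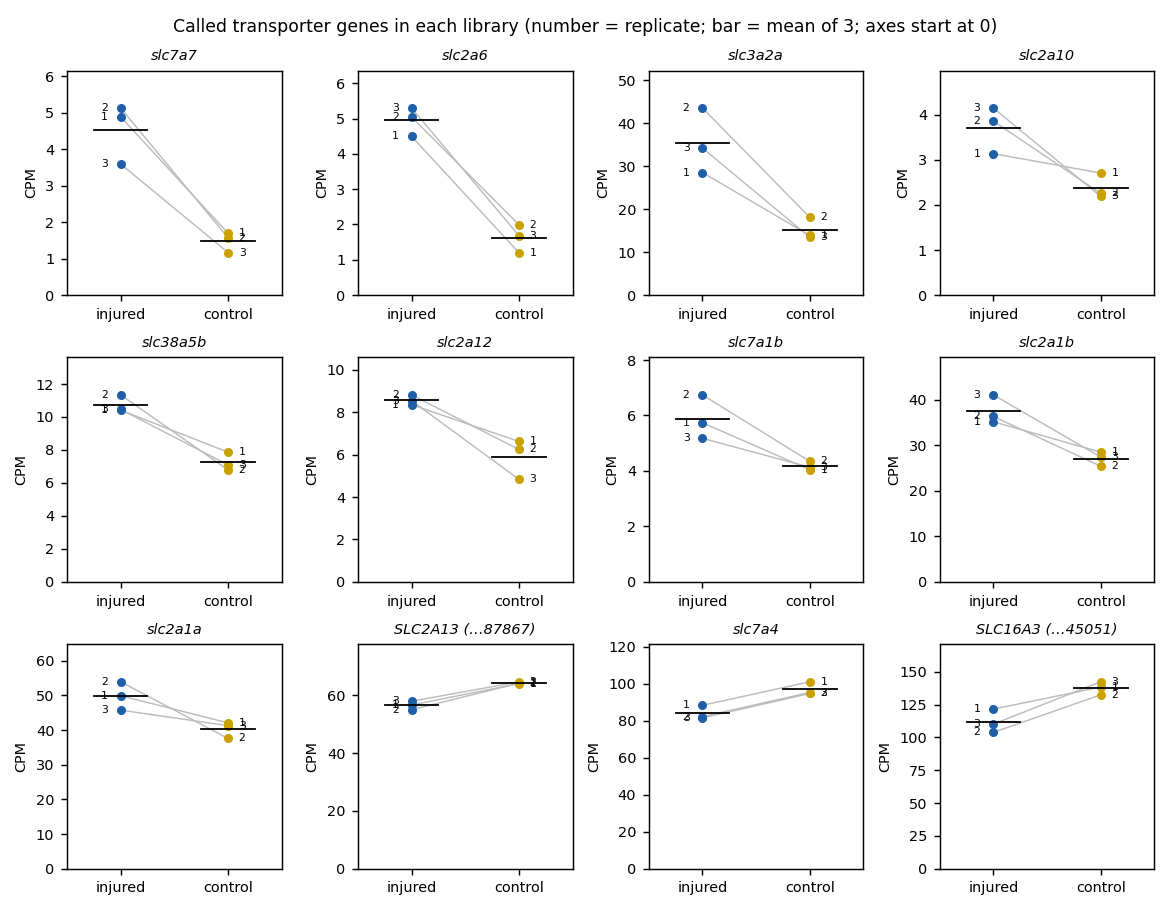
CPM of the 12 called members in each library, injured on the left and control on the right of each panel, with the replicate number beside each point, grey lines between same-numbered hemispheres and a black bar at the mean of 3. Injured and control libraries did not overlap in any panel. *slc7a7* and *slc2a6* had injured means of 4.54 and 4.95 CPM against control means of 1.48 and 1.63 CPM.

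Among the lactate and pyruvate carriers of the slc16a family, 1 of 7 genes tested was called, and it was lower after injury, where 4.82% of all genes were. The sum over these carriers was 178, 156 and 167 CPM in injured and 196, 189 and 204 CPM in control hemispheres, and the groups did not overlap, also when libraries were scaled by size alone. The ratio of the means was 0.85, and 0.88 with library size alone. The lower sum lay in the SLC16A3 copies described below and was not shared by the whole group. Of the 7 genes, 4 had a positive log2 fold change, and the median was 0.04.

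SLC16A3 proteins (MCT4) mainly export lactate in mammals. SLC16A3 (ENSDARG00000045051) had the highest CPM of the family and made up 35.4% of its reads in injured and 42.4% in control hemispheres. It had 121.5, 104 and 110.1 CPM in injured and 138, 132 and 142 CPM in control hemispheres, and fell by 0.30 ± 0.06 on the log2 scale (adjp = 0.021). Without control 1, control 3, injured 2 or injured 3 the adjp was 0.070, 0.077, 0.057 and 0.070. The second copy, ENSDARG00000028583, had 27.8, 22.4 and 24.7 CPM in injured and 29.6, 30.1 and 31.1 CPM in control hemispheres, again without overlap. Its log2 fold change was -0.28 ± 0.08, with adjp = 0.061, adjp = 0.021 without injured 1, adjp = 0.014 in the DESeq2 Wald test and adjp = 0.017 with the block.

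SLC16A1 (MCT1), a lactate carrier of vessels and glia in mammalian brain, had few reads, and neither copy was called. ENSDARG00000068572 had 3.13, 3.28 and 2.73 CPM in injured and 2.31, 2.31 and 2.37 CPM in control hemispheres, without overlap (log2 fold change 0.39 ± 0.12, adjp = 0.077, with the block 0.034). ENSDARG00000016963 had 0.70 to 0.98 CPM in injured and 0.52 to 0.74 CPM in control hemispheres (log2 fold change 0.50 ± 0.23, adjp = 0.19). For SLC16A7 (MCT2), the neuronal lactate importer of mammals, ENSDARG00000098258 had 23.4 to 27.8 CPM in injured and 22.6 to 26.8 CPM in control hemispheres (log2 fold change 0.04 ± 0.09, adjp = 0.80). The other copy, ENSDARG00000021573, stayed under 1 CPM in all libraries (log2 fold change -0.68 ± 0.41, adjp = 0.31). *slc16a8*, a lactate carrier of retinal pigment epithelium in mammals, had 15 to 51 reads per library (log2 fold change 0.53 ± 0.41, adjp = 0.45).

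None of the other 12 slc16a genes was called without the block, with 2 of them at an unadjusted *p*-value below 0.05 and DESeq2 calling the same number. Both belonged to the carriers of substrates other than lactate, whose sum was 137, 132 and 124 CPM in injured and 124, 117 and 98.8 CPM in control hemispheres. SLC16A6 (ENSDARG00000102793) had 25.2, 30.7 and 23.9 CPM in injured and 18.6, 21.7 and 14.2 CPM in control hemispheres, without overlap (log2 fold change 0.55 ± 0.16, adjp = 0.059). *slc16a9a* had 24.0, 16.6 and 22.6 CPM in injured and 17.1, 12.5 and 12.9 CPM in control hemispheres, with an overlap between injured 2 and control 1 (log2 fold change 0.57 ± 0.17, adjp = 0.061). In both genes all 3 pairs of same-numbered hemispheres had a higher injured value, and the adjp with the block was 0.0011 and 0.0022. SLC16A6 crossed the threshold without control 2 (adjp = 0.040), and *slc16a9a* without control 1 or injured 2 (adjp = 0.048 and 0.028).

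A SLC16A6 protein exports ketone bodies from the zebrafish liver, and mammalian SLC16A9 carries carnitine and creatine. The copies of these genes, SLC16A6 (ENSDARG00000060246) and *slc16a9b*, had log2 fold changes of -0.06 ± 0.11 and -0.02 ± 0.09 (adjp = 0.78 and 0.93). *slc16a10* (MCT10), which carries aromatic amino acids, had a log2 fold change of 0.28 ± 0.15 (adjp = 0.26, with the block 0.046). SLC16A12 (ENSDARG00000089885), related to a creatine carrier of mammals, had 8.86 to 9.54 CPM in injured and 5.95 to 8.66 CPM in control hemispheres (log2 fold change 0.31 ± 0.13, adjp = 0.17, with the block 0.031). The other SLC16A12 copy, both SLC16A5 copies, *slc16a4* and *slc16a13* had log2 fold changes of -0.0054 to 0.44 and adjp of 0.20 to 0.99.

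**Figure D3:**
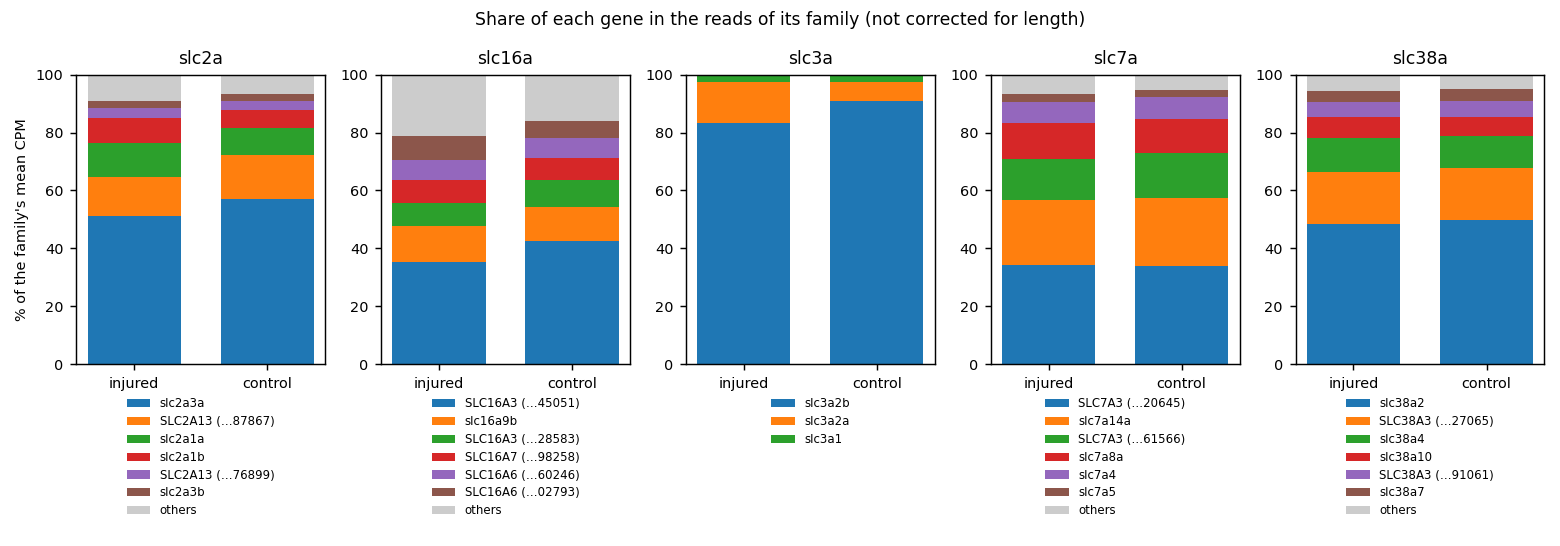
Share of each gene in the mean CPM of its family (percent, not corrected for transcript length), with injured at the left and control at the right of each panel, up to 6 leading genes of a family in colour and the rest in grey. *slc3a2a* took up 14.1% of the slc3a reads in injured and 6.5% in control hemispheres, and SLC16A3 (ENSDARG00000045051) 35.4% of the slc16a reads in injured and 42.4% in control hemispheres.

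The heavy chain of the amino acid exchangers, 4F2hc, is encoded in zebrafish by a pair of genes, of which *slc3a2a* was called higher and *slc3a2b* was not called. The difference between the copies gave an exact permutation *p* = 0.1, or 0.425 adjusted over 17 such pairs. *slc3a2a* had 28.5, 43.5 and 34.2 CPM in injured and 13.9, 18.1 and 13.4 CPM in control hemispheres, so that the lowest injured library exceeded the highest control library by a wide margin. The log2 fold change was 1.23 ± 0.18 (adjp = 0.0054). *slc3a2b*, with the highest CPM of the family, had 228, 187 and 212 CPM in injured and 233, 194 and 207 CPM in control hemispheres (log2 fold change -0.02 ± 0.09, adjp = 0.92). *slc3a1*, the heavy chain that pairs with Slc7a9 in mammalian kidney, had 5.75, 6.84 and 8.0 CPM in injured and 6.10, 6.19 and 5.29 CPM in control hemispheres (log2 fold change 0.23 ± 0.14, adjp = 0.32).

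Of the 9 light chains that join these heavy chains, *slc7a7* was called higher and none was called lower. This share, 11.1%, lay near the 11.6% of all genes called higher. Of the 9, 3 had an unadjusted *p*-value below 0.05 and 2 were called by DESeq2, both higher. *slc7a7* encodes y+LAT1, which exports cationic amino acids in exchange for neutral ones, and in zebrafish embryos it marks the precursors of microglia. It had 4.89, 5.13 and 3.60 CPM in injured and 1.70, 1.57 and 1.17 CPM in control hemispheres, with every injured value above every control value. The log2 fold change was 1.62 ± 0.20 (adjp = 0.0033), the largest among the called members.

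*slc7a5* (LAT1), the importer of large neutral amino acids at the blood-brain barrier, had 35.0, 28.7 and 35.0 CPM in injured and 27.9, 25.4 and 26.9 CPM in control hemispheres. The groups did not overlap, and the log2 fold change was 0.30 ± 0.09 (adjp = 0.058, with the block 0.0044, and 0.016 without injured 2). *slc7a11* (xCT), which exchanges extracellular cystine for glutamate, had 3.06, 3.01 and 3.28 CPM in injured and 2.38, 2.38 and 2.40 CPM in control hemispheres. It did not overlap either (log2 fold change 0.39 ± 0.11, adjp = 0.057, with the block 0.023). With libraries scaled by size alone both genes passed the threshold (adjp = 0.031 for *slc7a5* and 0.038 for *slc7a11*).

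The other light chains overlapped between conditions. *slc7a8a* (LAT2), with 138 to 150.4 CPM in injured and 143 to 148 CPM in control hemispheres, had a log2 fold change of -0.02 ± 0.04 (adjp = 0.86). *slc7a6* (y+LAT2) had 17.2 to 19.3 CPM in injured and 18.4 to 19.5 CPM in control hemispheres (log2 fold change -0.05 ± 0.06, adjp = 0.64). For SLC7A10 (Asc-1), an exchanger of small neutral amino acids and D-serine, the copies ENSDARG00000051730 and ENSDARG00000008100 had log2 fold changes of 0.11 ± 0.06 and 0.02 ± 0.17 (adjp = 0.29 and 0.95). *slc7a9*, the partner of Slc3a1 in mammalian kidney, had a log2 fold change of 0.15 ± 0.15 (adjp = 0.56). *slc7a8b* was spread most, with 4.18, 5.32 and 11.0 CPM in injured and 7.56, 6.04 and 3.55 CPM in control hemispheres (log2 fold change 0.25 ± 0.40, adjp = 0.74).

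The group of cationic amino acid carriers includes importers of arginine, lysine and ornithine that need no heavy chain. It also holds *slc7a4* and *slc7a14a*, for which such import is not assumed here. These averaged 84.1 and 260 CPM in injured and 97.0 and 290 CPM in control hemispheres. The whole group summed to 977, 865 and 922 CPM in injured and 1027, 980.2 and 1038 CPM in control hemispheres. Every injured library was below every control library, with a ratio of the means of 0.91, but with library size alone the ratio was 0.94 and the groups overlapped. The group had 7 genes tested, with 1 called higher and 1 called lower, beside 11.6% and 4.82% of all genes.

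*slc7a1b* (CAT1) had 5.74, 6.74 and 5.18 CPM in injured and 4.05, 4.34 and 4.13 CPM in control hemispheres, without overlap (log2 fold change 0.50 ± 0.12, adjp = 0.032). Without any library but injured 3 its adjp was 0.067 to 0.10, and without injured 3 it was 0.031. Its copy *slc7a1a* had 1.04, 1.31 and 1.89 CPM in injured and 1.42, 1.38 and 1.07 CPM in control hemispheres (log2 fold change 0.12 ± 0.25, adjp = 0.80). *slc7a4*, counted with this group by sequence, had 88.4, 82.2 and 81.6 CPM in injured and 101.1, 95.3 and 94.8 CPM in control hemispheres and fell by 0.21 ± 0.05 on the log2 scale (adjp = 0.031). The call of *slc7a4* was lost with library size alone (adjp = 0.075) and without any library but injured 1 (adjp 0.069 to 0.10, and 0.026 without injured 1).

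SLC7A3 (CAT3), the cationic carrier of neurons in mammals, had the highest CPM of the slc7a family. ENSDARG00000020645 had 421.5, 384 and 392 CPM in injured and 433, 415 and 428 CPM in control hemispheres (log2 fold change -0.09 ± 0.05, adjp = 0.23, with the block 0.047). The second copy, ENSDARG00000061566, had 177, 148 and 173 CPM in injured and 185, 187 and 212 CPM in control hemispheres, without overlap (log2 fold change -0.23 ± 0.08, adjp = 0.11, in the DESeq2 Wald test 0.034, with the block 0.016). *slc7a14a* had 238 to 279 CPM in injured and 274 to 299 CPM in control hemispheres (log2 fold change -0.16 ± 0.07, adjp = 0.16, with the block 0.0072). Its copy *slc7a14b* had 2 to 12 reads per library and was not tested. *slc7a2*, the remaining cationic carrier, had a log2 fold change of 0.92 ± 0.46 (adjp = 0.23). *slc7a6os* and *slc2a4rg*, which are not transporters, had log2 fold changes of -0.11 ± 0.08 and -0.17 ± 0.13 (adjp = 0.42 and 0.46).

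In the slc38a family 1 of 13 genes was called higher (7.69%), where 11.6% of all genes were, and none lower. The family sum was 684, 699 and 692 CPM in injured against 659, 657 and 648 CPM in control hemispheres. The groups did not overlap, at a ratio of the means of 1.06. *slc38a5b* belongs to system N, which moves glutamine in either direction and which glia use to release it in mammalian brain. It had 10.4, 11.3 and 10.5 CPM in injured and 7.87, 6.79 and 7.10 CPM in control hemispheres, a clear gap between the groups (log2 fold change 0.57 ± 0.08, adjp = 0.0060). Its copy *slc38a5a* had 4.18 to 4.75 CPM in injured and 4.29 to 4.82 CPM in control hemispheres (log2 fold change -0.00079 ± 0.10, adjp = 0.998).

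SLC38A3, the main system N carrier of mammalian astrocytes, showed no call in either copy. ENSDARG00000027065 had 98.0, 145 and 126 CPM in injured and 109.9, 138 and 105 CPM in control hemispheres, with replicate 2 highest in both groups (log2 fold change 0.07 ± 0.16, adjp = 0.83). ENSDARG00000091061 had 35.3 to 38.3 CPM in injured and 32.7 to 39.0 CPM in control hemispheres (log2 fold change 0.03 ± 0.07, adjp = 0.82). *slc38a2* (SNAT2), a system A importer of glutamine and alanine, had the highest CPM of the family with 360, 323 and 322 CPM in injured and 340.4, 318 and 322 CPM in control hemispheres. Its log2 fold change was 0.04 ± 0.06 (adjp = 0.73).

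With the replicate block, 3 more slc38a genes passed the threshold, all of them higher. In that fit 19.9% of all genes were called higher. *slc38a4*, the other system A member, had a log2 fold change of 0.20 ± 0.10 (adjp = 0.23, with the block 0.0035). *slc38a10* had 48.4, 48.7 and 51.5 CPM in injured and 39.0, 44.6 and 46.5 CPM in control hemispheres (log2 fold change 0.19 ± 0.07, adjp = 0.12, with the block 0.015). *slc38a9*, the arginine sensor of the lysosome, had 5.31, 5.52 and 5.78 CPM in injured and 4.34, 4.81 and 4.90 CPM in control hemispheres (log2 fold change 0.24 ± 0.10, adjp = 0.14, with the block 0.042). Neither of the last 2 overlapped between conditions, nor did *slc38a6*, with 15.2 to 16.3 CPM in injured and 13.4 to 14.4 CPM in control hemispheres (log2 fold change 0.16 ± 0.06, adjp = 0.14, with the block 0.066). *slc38a7*, a lysosomal glutamine carrier, had a log2 fold change of -0.02 ± 0.07 (adjp = 0.92). The SLC38A8 copies ENSDARG00000054196 and ENSDARG00000009482 had log2 fold changes of -0.12 ± 0.15 and 1.12 ± 0.50 (adjp = 0.67 and 0.18), the second with 3 to 18 reads per library, and *slc38a11*, with 4 to 14 reads, one of -0.01 ± 0.54 (adjp = 0.99).

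Duplicated copies were compared within each library as a log2 ratio, which does not depend on how libraries are scaled. Of 17 such ratios, 4 did not overlap between conditions. A random split into 3 and 3 libraries separates a ratio fully at a rate of 0.1. Over all single genes, 20.3% had every injured library higher and 15.5% every injured library lower, and ratios over all gene pairs were not computed. The ratio of *slc3a2a* to *slc3a2b* was -3.00, -2.10 and -2.63 in injured and -4.07, -3.43 and -3.95 in control hemispheres, a difference of 1.24. The ratio of *slc38a5b* to *slc38a5a* was 1.21, 1.26 and 1.32 in injured and 0.71, 0.66 and 0.71 in control hemispheres, a difference of 0.57. For SLC16A6 the ratio of ENSDARG00000060246 to ENSDARG00000102793 differed by -0.63, and for SLC2A13 that of ENSDARG00000076899 to ENSDARG00000087867 by 0.29. For these 4 the exact two-sided permutation test gave *p* = 0.1, the smallest value possible, and 0.425 after adjustment over the 17 ratios. This test permuted the libraries freely and did not use the pairing by replicate number.

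In the remaining ratios the conditions overlapped. The ratio of *slc2a1b* to *slc2a1a* was -0.51, -0.57 and -0.16 in injured and -0.56, -0.57 and -0.59 in control hemispheres (difference 0.16, exact permutation *p* = 0.3). The SLC16A3 copies were in almost the same ratio throughout, with a difference of 0.02 (exact permutation *p* = 0.7).

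**Figure D4:**
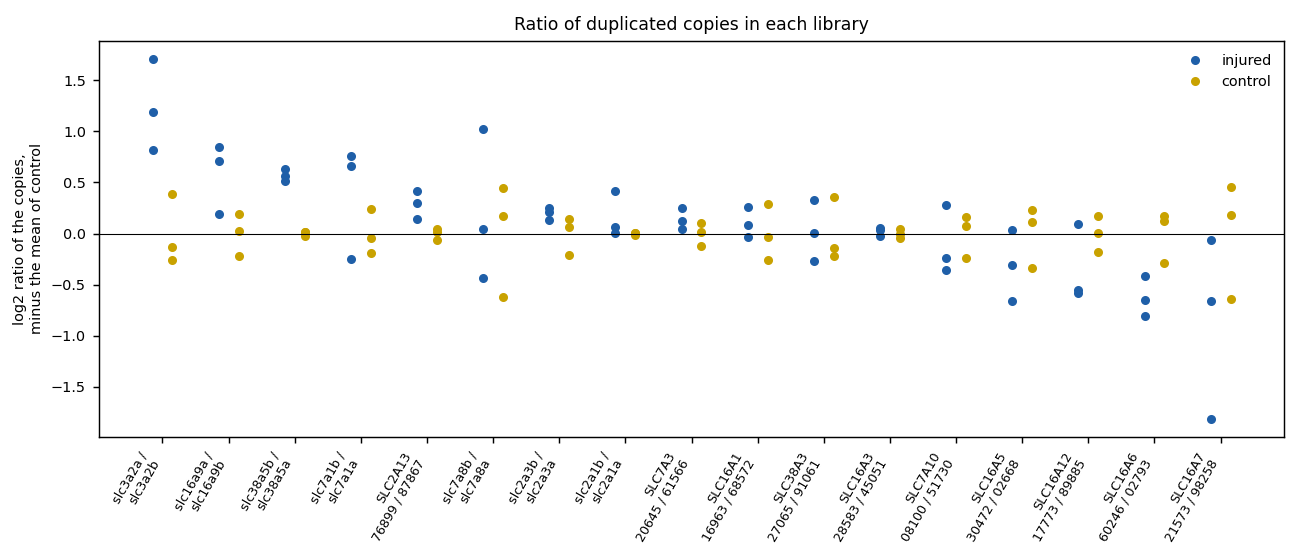
Log2 ratio of the CPM of duplicated copies in each library, minus the mean of the 3 control libraries, for 17 gene pairs with 3 injured (blue, left) and 3 control points (yellow, right) each. Digits after a name in capitals are the last 5 of each Ensembl identifier. The mean ratio of *slc3a2a* to *slc3a2b* differed by 1.24 and that of *slc38a5b* to *slc38a5a* by 0.57, and all other pairs but SLC16A6 and SLC2A13 overlapped.

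Cell type markers moved in the same comparison, in which 11.6% of all genes were called higher and 4.82% lower. Of 12 microglia and leukocyte markers tested, 11 were called higher, and the sum of the list was 806 to 837 CPM in injured and 368 to 374 CPM in control hemispheres, with the granulocyte marker *lyz* at 0 in all libraries. Most of this sum was *cd74a*, with 503 ± 34 CPM in injured and 240 ± 14 CPM in control hemispheres. The log2 fold changes of the 12 markers ran from 0.56 to 2.35, with a median of 1.06. Of 14 endothelial and pericyte markers, 10 were called higher, and their sum was 366 to 412 CPM in injured and 259 to 264 CPM in control hemispheres. Of 14 radial glia markers chosen, 10 were counted, 7 of them called higher. Their sum was 1917 to 2270 CPM in injured and 1380 to 1490 CPM in control hemispheres. It leaves out *fabp7a*, *atp1a1b*, *glula* and *slc1a2b*. The last 2 share a name with a copy that is not on this list. They were counted only with glutamine and glutamate turnover, a list that holds both copies. Under the name *glula*, GLUL (ENSDARG00000099776) averaged 1253 CPM in injured and 1217 CPM in control hemispheres (log2 fold change 0.04 ± 0.04, adjp = 0.51). Under the name *slc1a2b*, SLC1A2 (ENSDARG00000102453) averaged 3062 CPM in injured and 2764 CPM in control hemispheres (log2 fold change 0.15 ± 0.04, adjp = 0.046). This gene alone had more CPM than the radial glia sum in both groups, so the sum depends on what is left out. Oligodendrocyte markers (7 of 11 called higher) summed to 708 to 936 CPM in injured and 516 to 660 CPM in control hemispheres, and markers of skin and connective tissue (6 of 10 called higher) to 431 to 618 CPM in injured and 183 to 293 CPM in control hemispheres. Of 15 neuronal markers, 5 were called lower, and their sum was 9091 to 9466 CPM in injured and 10393 to 10481 CPM in control hemispheres. Of 5 erythrocyte markers, 1 was called higher. With 1 library left out the fewest calls were 5 of endothelial markers (without any of the control libraries), 4 of oligodendrocyte markers (without control 3) and 3 of neuronal markers (without any control library or injured 3).

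The ratio of the means was 2.20 for microglia and leukocyte markers, beside the 3.08 of *slc7a7* and the 3.02 of *slc2a6*, and 1.46 for endothelial and pericyte markers, beside the 1.38 of *slc2a1b* and the 1.24 of *slc2a1a*. It was 2.21 for markers of skin and connective tissue, 1.38 for oligodendrocyte markers and 1.16 for erythrocyte markers. For the radial glia markers summed, without *fabp7a*, *atp1a1b*, *glula* and *slc1a2b*, it was 1.46 as well. For neuronal markers it was 0.89, beside the 0.89 of *slc2a3a* and the 0.88 of SLC2A13 (ENSDARG00000087867). The part of these markers in the changes of the transporter genes was not tested, and in tissue RNA fewer cells of a type and less RNA per cell cannot be told apart. In injured 2, the injured library without a raised level of pineal transcripts, *slc7a7*, *slc2a6*, *slc3a2a*, *slc38a5b* and *slc2a1b* were above every control library, as in injured 1 and 3. These genes were picked by calls that used injured 2, so this is no separate test. The part of the pineal transcripts in the changes was not tested. With injured 2 as the only injured library no spread could be estimated for that group, so no calls were counted.

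**Figure D5:**
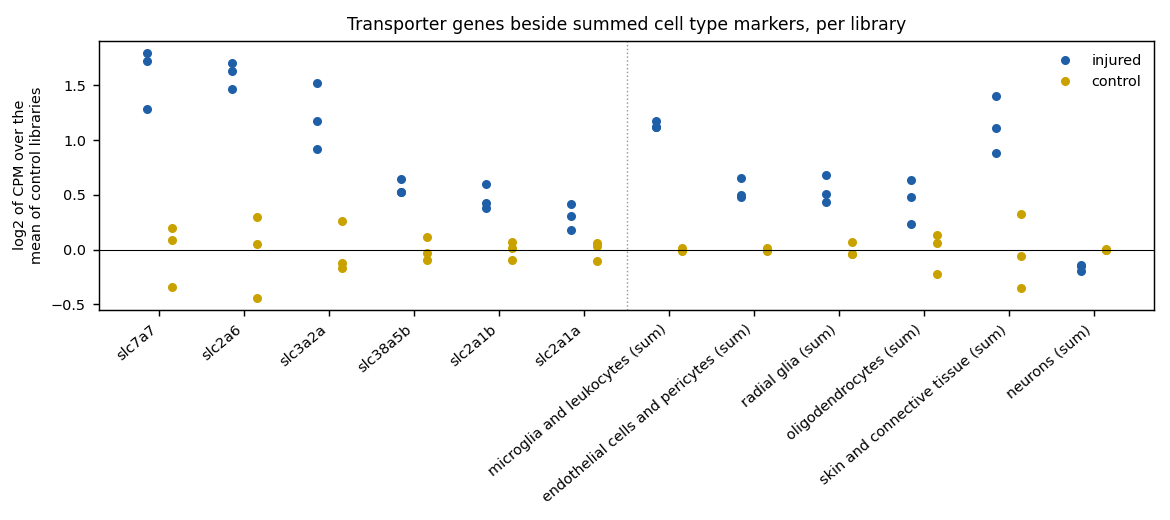
Log2 of the CPM over the mean of the control libraries, for 6 called transporter genes and for the summed markers of 6 cell types, with 3 injured (blue, left) and 3 control points (yellow, right) each. The radial glia sum leaves out *fabp7a*, *atp1a1b*, *glula* and *slc1a2b*. Summed microglia and leukocyte markers were 806 to 837 CPM in injured and 368 to 374 CPM in control hemispheres, and injured libraries lay above control libraries in every column except that of neurons, where they lay below.

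Genes that use or supply the transported compounds were read from lists, and their counts stand beside the 11.6% of all genes that were called higher and the 4.82% called lower. Of 28 genes of glycolysis and lactate formation, 3 were called higher, a share near that of all genes, and 7 lower (median log2 fold change -0.12). The increases were those of *hk2*, a hexokinase, with 4.65 ± 0.68 CPM in injured and 1.94 ± 0.19 CPM in control hemispheres (log2 fold change 1.26 ± 0.15, adjp = 0.0030), of the aldolase ALDOA (ENSDARG00000034470; 1.15 ± 0.15, adjp = 0.0041) and of the enolase ENO1 (ENSDARG00000013750; 0.62 ± 0.08, adjp = 0.0033). Of the genes that encode other forms of these enzymes, *hk1* (-0.12 ± 0.04, adjp = 0.096) and ALDOA (ENSDARG00000011665; -0.12 ± 0.05, adjp = 0.12) were not called. ALDOC (ENSDARG00000019702), the aldolase of highest CPM, had 1843 ± 54 CPM in injured and 2117 ± 38 CPM in control hemispheres and fell by 0.20 ± 0.04 on the log2 scale (adjp = 0.016). The enolases ENO1 (ENSDARG00000022456) and *eno2* fell by 0.18 ± 0.04 and 0.21 ± 0.04 (adjp = 0.019 and 0.012). The decreases were small, the largest being that of the phosphofructokinase PFKP (ENSDARG00000028000), which fell by 0.22 ± 0.03 on the log2 scale (adjp = 0.0073). The count of 7 decreases was 3 with library size alone, 12 with DESeq2 and 14 with the block, which called 16.2% of all genes lower. It was 1 to 4 with a library left out, lowest without control 1 or control 3.

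Of 13 genes tested of the amino acid stress response (ATF4 axis), whose targets in mammals include several amino acid transporters, 7 were called higher and none lower (8 at an unadjusted *p*-value below 0.05, DESeq2 none lower), with a median log2 fold change of 0.25. *atf5a*, a transcription factor, had 37.0 ± 0.89 CPM in injured and 18.4 ± 3.5 CPM in control hemispheres (log2 fold change 1.00 ± 0.12, adjp = 0.0033). *ddit3*, another transcription factor of this response, and *psat1*, an enzyme of serine synthesis, had log2 fold changes of 0.62 ± 0.06 and 0.50 ± 0.10 (adjp = 0.0019 and 0.017). Asparagine synthetase (*asns*) was not called (log2 fold change -0.10 ± 0.09, adjp = 0.48). With a library left out 4 to 6 genes were called, the fewest without control 3.

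Of 15 genes tested of glutamine and glutamate turnover, 4 were called higher and 3 lower (median log2 fold change -0.0033). DESeq2 called 5 lower, and so did the block, with which 16.2% of all genes were called lower. The largest changes were increases of the glial glutamate importers *slc1a3a* (0.91 ± 0.08, adjp = 0.0012) and *slc1a3b* (0.87 ± 0.12, adjp = 0.0047) and of the glutamate dehydrogenase *glud1a* (0.80 ± 0.09, adjp = 0.0025), all as log2 fold changes. The genes called lower included SLC17A7 (ENSDARG00000016480), a vesicular glutamate transporter, which fell by 0.48 ± 0.09 (adjp = 0.011). The list written for transporter chaperones held 6 genes, of which *embigin* was not tied to a single gene and is missing. Of the 5 left, *caly* is not known as a partner of the families examined here. None of the 5 was called higher (none by DESeq2) and 3 were called lower, with a median log2 fold change of -0.23. These were the neuroplastin genes NPTN (ENSDARG00000103002), which fell by 0.32 ± 0.04 (adjp = 0.0029), and NPTN (ENSDARG00000043864), which fell by 0.23 ± 0.05 (adjp = 0.017), and *caly*, which fell by 0.24 ± 0.05 (adjp = 0.016). The basigin gene *bsg*, whose product brings monocarboxylate transporters to the membrane, had 699 ± 17 CPM in injured and 674 ± 8.0 CPM in control hemispheres (log2 fold change 0.05 ± 0.04, adjp = 0.39). This count of decreases was 1 without control 1 or injured 3.

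Of 8 genes of arginine use, 1 was called higher (12.5%, near the share of all genes), the argininosuccinate synthase *ass1* (log2 fold change 0.50 ± 0.13, adjp = 0.038), and it was called in 1 of the 6 tests with a library left out, that without control 2. With the block 2 genes of this list were called lower. Without the block none was called of 7 genes of glutathione synthesis, 10 of pyruvate entry into mitochondria and 7 of the hypoxia response. At an unadjusted *p*-value below 0.05 these lists had 1, 4 and 2 genes, and DESeq2 called 1, 1 and 0 of them. The block changed this, against 19.9% of all genes called higher and 16.2% called lower with it. It called 1 glutathione gene higher, 3 pyruvate genes higher and 4 lower, and 3 hypoxia genes higher and 1 lower. Among them the pyruvate dehydrogenase kinase PDK2 (ENSDARG00000059054) had a log2 fold change of 0.70 ± 0.22 (adjp = 0.076, with the block 0.00061), and the prolyl hydroxylase *egln3* one of 0.53 ± 0.20 (adjp = 0.12, with the block 0.0027). The median log2 fold changes of the 3 lists were -0.016, -0.017 and 0.07.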

How the data were processed

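Polyadenylated RNA of 3 injured and 3 control telencephalic hemispheres was sequenced, with 1 library per hemisphere. The authors mapped reads to GRCz11 with STAR, kept the best scoring locus of reads that fitted several, and deposited the raw counts that HTSeq (union mode) gave for each gene. Versions, strand setting and annotation release were not given in the sources used here, so that reads of overlapping, antisense or near-identical genes may be misassigned. Reads on no gene made up 27.2% to 29.7% of a library and ambiguous reads 1.45% to 1.53%. Both were left out.

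In R 4.3.3, edgeR 4.0.16 (TMM, filterByExpr, glmQLFit, glmQLFTest) was run on condition alone, with Benjamini-Hochberg adjustment over 22558 genes and a threshold of 0.05. The SE was computed as |log2 fold change| over the root of F. CPM values are not per length. The steps were tested on simulated data. Libraries of a group differed by more than sampling noise (chi-square per degree of freedom 15.9 to 30.1). The study used the contralateral hemisphere as control, and residuals of injured and control libraries of the same number correlated at 0.55, 0.44 and 0.34 across genes, others at -0.39 to -0.12. Replicate numbers were therefore taken as pairs in an alternative fit with a replicate block and in the pair ratios. The main fit and the fits with a library left out did not use the pairs. Other alternatives were RLE, library size alone, no filter, DESeq2 1.42.0, each library left out, and injured 1 and 3 left out.

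Names were found for 29201 of the 32520 identifiers. Copies were told apart where the name table or a supplementary table of the study named one of them. The other copy was then named by exclusion, as were *slc7a1b*, *slc3a2b*, *slc38a5a*, *slc7a8a*, *slc7a14a* and *slc16a9b*. In the lists, copies that share a name were given their letters in the order of their identifiers, so a letter may not mark the right copy. The only row of a name could also stand for a lettered copy. CYP19A1 (ENSDARG00000041348) was counted as *cyp19a1b*, and its copy is not certain. Genes not matched in these ways were left out of counts and sums, among them *pgk1*, *mpc2*, *vegfaa*, *adma* and *embigin*. Of 15 microglia and leukocyte, 8 erythrocyte and 18 pineal and photoreceptor genes written, 13, 5 and 11 were matched. Members and lists were chosen with earlier results of these data known, and the telencephalon list after the counts had been seen. The genes named by rule are every called member without overlap, the member of highest CPM in each family, members known for transport in brain, the copies of these, and the 3 called genes with the largest change in each pathway list. All others were named after their values were seen. The values of 1 member are not reported here.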

Additional observations from a re-analysis of the deposited data

How the results depend on the processing

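The direction of the log2 fold change of every called member was the same under all alternatives. The number called was 12 with RLE size factors and without the filter, 14 with library size alone, 18 with DESeq2 and 28 with the replicate block. Without injured 1 and 3 together, injured 2 stood alone and its group had no spread of its own, so no count is given. Members called lower numbered 3, against 1 with library size alone, where SLC2A13 (ENSDARG00000087867) and *slc7a4* were lost, 6 with DESeq2 and 8 with the replicate block, and those called higher numbered 9, against 20 with the block. The block changed no call that had been made without it. With each library left out in turn, 6 to 10 members were called, 6 to 8 higher and 0 to 4 lower. The fewest calls, 6, were made without control 3, and none lower without control 1, control 3 or injured 2. The cause of these differences was not tested, and a fit with a library left out also rests on fewer libraries. Over all genes the count of calls was 3715, and 8141 with the block. The share of calls that were higher was 70.7%, and 86.7% with library size alone, 60.9% with DESeq2 and 55.2% with the block. Library size alone moved the median log2 fold change of all genes to 0.05. The summed ratio of the slc2a family was 0.99 and of the slc16a family 0.97, and with library size alone 1.03 and 1.01. Genes with few reads, such as *slc2a15a* with 5 to 27 and *slc38a11* with 4 to 14 per library, allow only large changes to be seen.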

Other observations

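Pairs of same-numbered hemispheres were not alike for the transporter genes. The injured over control ratio was highest in pair 3 for 33 of 68 members (48.5%), where 34.3% of all genes had their highest ratio, in pair 2 for 20 (29.4%, all genes 29.8%) and in pair 1 for 15 members (22.1%, all genes 35.9%). For these counts 0.1 CPM was added to each value. In 6 members the log2 ratio of pair 3 exceeded the mean of the other pairs by more than 1 (8.82% of members, 1.88% of all genes), and in none did that of pair 1 or pair 2 (0.802% and 0.377% of all genes). In 3 members pair 1 lay more than 1 below the mean of the other pairs (4.41% of members, 0.829% of all genes). Examples, chosen after their values were seen, are *slc7a2*, a cationic carrier that mammalian macrophages use for arginine, with log2 ratios, nothing added, of -0.05, 0.91 and 2.51 in pairs 1, 2 and 3, *slc7a8b* with -0.85, -0.18 and 1.63, and *slc2a11a* with -0.34, -0.15 and 1.36. The CPM of *slc7a2* was 3.64, 6.06 and 5.24 in injured and 3.77, 3.22 and 0.92 in control hemispheres, so that control 3 was the lowest library. That of *slc2a11a* was 8.77, 9.59 and 17.3 in injured and 11.1, 10.6 and 6.76 in control hemispheres, with injured 3 highest and control 3 lowest. None of these 3 genes was called (adjp = 0.23, 0.74 and 0.52). Injured 3 was also the library with the most pineal and photoreceptor transcripts, at 448 CPM, and its part in these ratios was not tested.

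Over all members tested, 27 had a higher injured value in all 3 pairs, 14 a lower one in all 3 and 27 mixed signs, where the shares over all genes were 31.5%, 31.6% and 36.9%. These counts include the called members and are descriptions.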
